A study of Mus musculus with 6 samples.

Results

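Serine can be made inside the cell from a glycolytic intermediate by a chain of enzymes, phosphoglycerate dehydrogenase (Phgdh), phosphoserine aminotransferase (Psat1) and phosphoserine phosphatase (Psph). Serine hydroxymethyltransferases (Shmt1 in the cytosol, Shmt2 in mitochondria) then split it into glycine and a carbon unit carried by folate, which the mitochondrial enzyme Mthfd2 oxidises further. Several of these genes are known targets of ATF4, a transcription factor whose translation increases when the initiation factor eIF2 is phosphorylated under amino acid shortage or stress of the endoplasmic reticulum. Asns (asparagine synthetase), Ddit3 (the stress transcription factor CHOP) and Trib3 (a pseudokinase that binds AKT) are ATF4 targets outside serine synthesis. The set described here is these 9 genes and Atf4 itself, that is 10 of the 18193 genes with a probe set of their own on the array, and it comprises every probe set whose annotation names one of them and no other gene, 26 in all. The genes were chosen by their place in these pathways with the knockout against wild-type differences of these same arrays already known. Their differences between the groups are therefore given as a description, without p-values.

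The samples were whole epididymal white adipose tissue from 6 C57BL/6 mice at 8 weeks of age, with 1 Affymetrix array per mouse. In 3 mice (CNOT3KO) the Cnot3 gene, which encodes a core subunit of the CCR4-NOT deadenylase complex, had been deleted with a Cre recombinase driven by the promoter of adiponectin, a gene of adipocytes. The remaining 3 mice (WT) are labelled wild type, and whether they carried a floxed allele or the Cre is not given in the sources used here. Other cells of the fat pad keep Cnot3 in the knockout, and fewer cells of a type cannot be told apart from less RNA per cell in whole tissue. Values are MAS5 signals on a linear scale, with trimmed means that differed between arrays by at most 0.0701%. Such equality can come from scaling of the arrays, so it is no check that they are comparable. The median signals ran from 91.9 to 92.9 in the WT arrays and from 82.1 to 88.0 in the CNOT3KO arrays. Precision is limited by having 3 arrays in each group.

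Cnot3 read 293 to 305 in the WT arrays and 179 to 229 in the CNOT3KO arrays (log2 difference -0.54, SE 0.14, limma adjusted p = 0.0131), by a probe set whose position relative to the deleted part was not analysed here. The adipocyte marker Adipoq was bright in both groups, 28794 ± 6538 in WT and 26934 ± 4407 in CNOT3KO (SD, n = 3 each). Lep, another adipocyte marker, fell from 10667 ± 746 to 4489 ± 655 (log2 -1.25, SE 0.12, limma adjusted p = 8.9e-05). The summed signal of 13 adipocyte markers ran from 192235 to 241655 in WT and from 169676 to 205758 in CNOT3KO, and 4 of the 13 passed as lower. Their log2 differences ran from -1.29 to -0.02, with a median of -0.23. Of 15 macrophage markers 13 passed as higher, and their sum rose from a range of 24947 to 31259 to a range of 51034 to 74033. Of 12 endothelial markers 12 passed as lower, with sums of 20821 to 21251 and 7350 to 8493. All 9 tested proliferation markers passed as higher, with sums of 761 to 861 and 3409 to 4095. No gene of these lists lay under the filter on dim signals. The summed smooth muscle and mesothelial markers were lower, and the summed progenitor and T cell markers higher, in every CNOT3KO array than in every WT array. By gene, 4 of 7 tested smooth muscle markers passed as lower and 1 as higher, and 4 of 8 mesothelial markers as lower. Of 8 progenitor markers 4 passed as higher and 1 as lower. Of 4 tested T cell markers 1 passed as higher (log2 2.74, list median 0.08). The summed epididymis markers ran from 200 to 238 in WT and from 239 to 259 in CNOT3KO. Of these 6 markers 5 were too dim to test, and the 1 tested passed as higher (log2 0.72). These shifts in cell type markers stand beside every difference given below, and their part in those differences was not tested.

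The stretches of promoter that follow come from RefSeq (GRCm38.p6) and lie just before the annotated transcription start. They are shown for Phgdh and Psat1, adjacent steps of serine synthesis whose signals differed in opposite directions, and for Asns, a classic ATF4 target. Capitals mark the core of the composite C/EBP-ATF element, TGATGNAA on either strand (TTNCATCA on the other), and the CCAAT box (CCAAT or ATTGG), which was added after the sequences had been seen. No window of the 10 genes held both motifs. In the same build Phgdh lies at chr3:98313171-98339969, Psat1 at chr19:15905123-15925059 and Asns at chr6:7675165-7693209, and the sequences end at the base before each gene. Each line covers the 100 bases before the start, at chr3:98339970-98340069 for Phgdh, chr19:15925060-15925159 for Psat1 and chr6:7693210-7693309 for Asns, all on the minus strand.
Phgdh: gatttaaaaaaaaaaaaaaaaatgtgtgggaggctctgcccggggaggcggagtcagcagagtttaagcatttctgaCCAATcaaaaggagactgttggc
Psat1: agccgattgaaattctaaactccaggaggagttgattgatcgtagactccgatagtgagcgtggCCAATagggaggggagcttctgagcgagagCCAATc
Asns: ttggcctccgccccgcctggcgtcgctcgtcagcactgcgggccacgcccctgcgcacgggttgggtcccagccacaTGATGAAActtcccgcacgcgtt

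The composite core was found in the 300-base window (250 bases before to 50 after the start) of 2 of the 10 genes. In Asns the match TGATGAAA began 23 bases before the start. In Trib3 the match TTACATCA lay inside the transcript, beginning at its base 15. Over all 32851 promoter windows of RefSeq, 3.97% held the core. The CCAAT box was found in 7 of the 10 genes, among them Phgdh, Psat1 and Atf4, and in 37.4% of all windows. Psat1 has another annotated start, whose window held neither motif. Counted by window, as the shares over RefSeq are, the core lay in 2 and the CCAAT box in 7 of 11 windows. A match is a description of the letters and no measure of binding.

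Differences are CNOT3KO minus WT on the scale of log2(signal + 22.5), and a gene is called when its limma adjusted p over all tested genes is below 0.05. All 10 genes passed the filter on dim signals through their brightest probe set. By that probe set 4 genes were called lower (Phgdh, Asns, Atf4 and Ddit3) and 1 higher (Psat1), and 5 were not called. Over the 12769 genes tested, 16.9% were called lower, 23.2% higher and 40.1% in either direction. The signals of the groups did not overlap for 6 of the 10 genes, against 51.7% of all tested genes. Because the genes were listed with this contrast known, nothing is read from these shares. The median log2 difference was -0.11 over the 10 genes and 0.02 over all tested genes. After subtraction of every array's own median over tested genes, 2318 genes were called higher and 2800 lower, against 2959 and 2156 without centring. The counts of the 10 genes were the same with that centring.

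**Figure D1:**
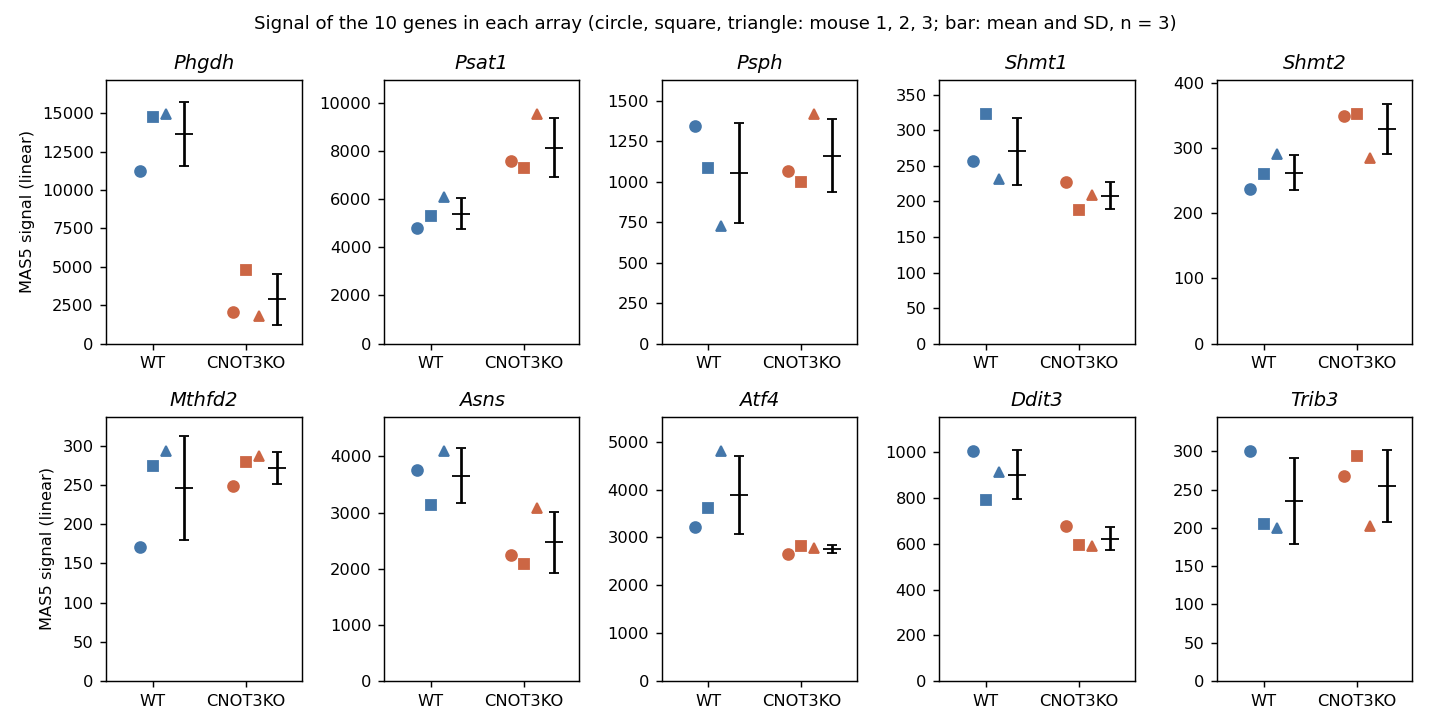
Each panel plots the linear MAS5 signal (vertical axis, from 0) of 1 gene's brightest probe set in the 3 WT arrays (blue) and the 3 CNOT3KO arrays (orange), with the mean and SD beside them and the mouse number given by the symbol. Phgdh drops from between 11231 and 14944 to between 1802 and 4808, Psat1 is higher in every knockout array, Asns, Atf4 and Ddit3 are lower in every knockout array, and Psph, Shmt2, Mthfd2 and Trib3 overlap.

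Phgdh, which commits glycolytic carbon to serine, showed the widest difference of the 10 genes. Its brightest probe set read 11231, 14769 and 14944 in the 3 WT mice and 2050, 4808 and 1802 in the 3 CNOT3KO mice. Every knockout array lay well below every WT array, and CNOT3KO mouse 2 kept more signal than the other 2 knockout mice. The knockout level was 0.194 of WT, a log2 difference of -2.36 (SE 0.31, n = 3 against 3). Across the 6 settings that left out 1 mouse the difference stayed between -2.80 (without CNOT3KO mouse 2) and -2.10 (without CNOT3KO mouse 3). The other 3 probe sets of Phgdh gave log2 differences of -2.42, -2.10 and -1.68, also without overlap of the groups, and mouse 2 was the highest knockout array in each of them. All 4 carry the suffix of probe sets that can cross-hybridise, and 2 further probe sets name Phgdh together with a predicted gene and were not used.

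Psat1, which transfers the amino group of glutamate to the product of Phgdh, was higher in the knockout. Its brighter probe set read 4817, 5285 and 6110 in WT and 7577, 7314 and 9533 in CNOT3KO. The lowest knockout value exceeded the highest WT value. The knockout level was 1.50-fold of WT (log2 0.59, SE 0.13), and the gene was called in each of the 19 other settings. The other probe set was higher too, by a smaller difference (log2 0.35), reading 3829 to 4527 in WT and 5005 to 5600 in CNOT3KO.

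Psph, the phosphatase of the last step, read 1347, 1085 and 728 in WT and 1064, 999 and 1418 in CNOT3KO. The groups overlapped, and the 3 WT mice alone spanned most of the range. Its log2 difference was 0.16 (SE 0.21), and it turned to -0.075 without WT mouse 3. The 3 enzymes of the pathway thus read in 3 ways, lower for Phgdh, higher for Psat1 and within the spread between mice for Psph.

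Shmt1, the cytosolic serine hydroxymethyltransferase, gave no single answer. Its brightest probe set read 257, 323 and 232 in WT and 227, 189 and 210 in CNOT3KO (log2 -0.33, SE 0.16), lower in each knockout array but not called. A probe set without a cross-hybridisation suffix read 194, 159 and 200 in WT and 259, 278 and 284 in CNOT3KO. By that one Shmt1 was higher (log2 0.52) and was called when probe sets with such suffixes were avoided. Another probe set without such a suffix went the other way with overlapping groups (log2 -0.24), reading 192, 244 and 256 in WT and 174, 175 and 225 in CNOT3KO. The fourth lay under the filter, with 7.57 to 12.7 in WT and 16.7 to 91.1 in CNOT3KO.

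Shmt2, its mitochondrial counterpart, read 237, 260 and 290 in WT and 349, 352 and 284 in CNOT3KO. CNOT3KO mouse 3 lay within the WT range, and the log2 difference was 0.30 (SE 0.15), not called except with array weights (0.37). The differences of its 4 probe sets ran from 0.27 to 0.51, and 1 of them, with groups that did not overlap, read 98.0 to 124 in WT and 146 to 163 in CNOT3KO. Mthfd2, which uses the folate-bound carbon in mitochondria, read 170, 275 and 293 in WT and 249, 280 and 288 in CNOT3KO. The low value of WT mouse 1 set its log2 difference of 0.17 (SE 0.20), which was -0.057 without that mouse. The other Mthfd2 probe set read 148 to 217 in WT and 230 to 287 in CNOT3KO (log2 0.42) and was not called when tested singly.

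**Figure D2:**
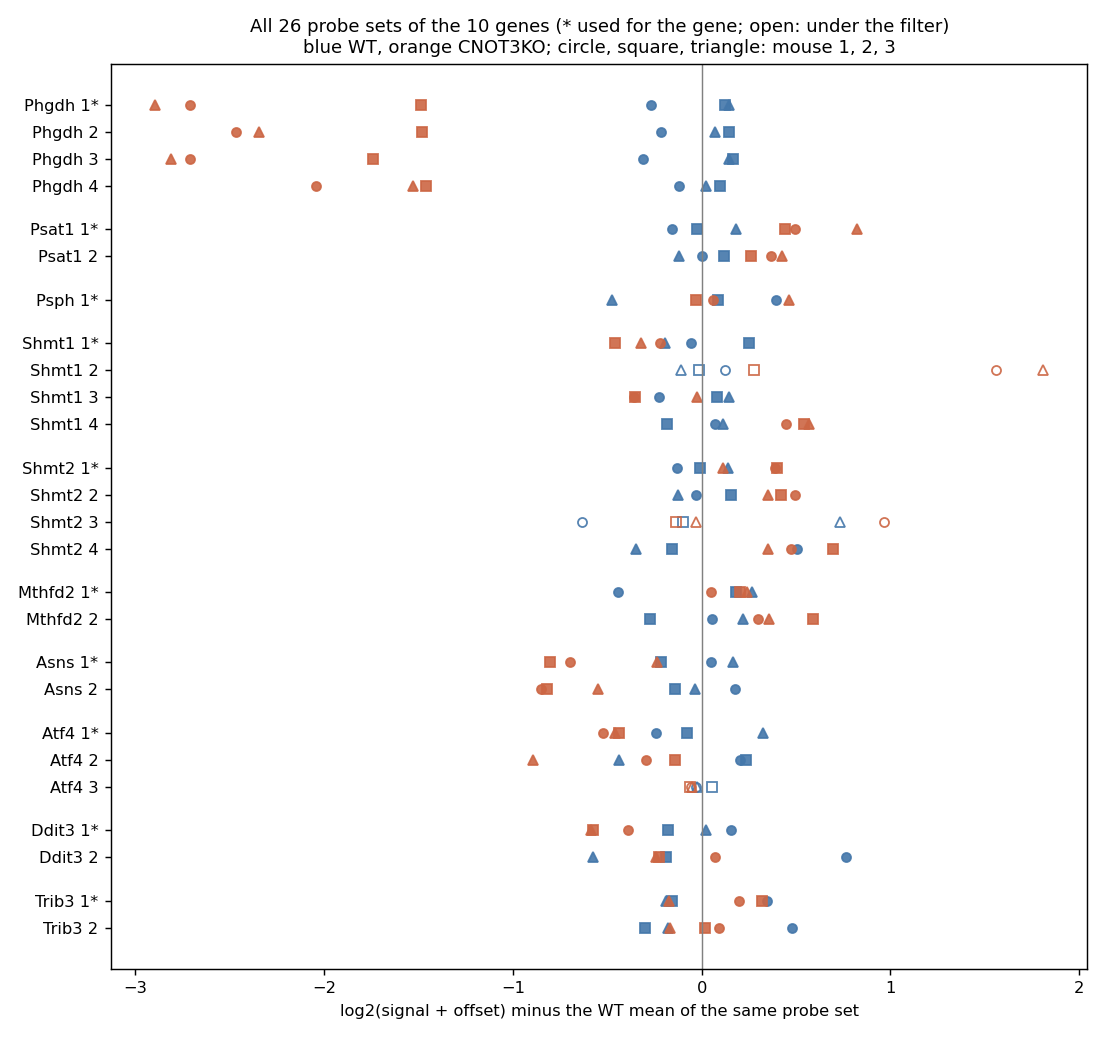
Each row is 1 of the 26 probe sets, and each point is 1 array's log2(signal + 22.5) minus the WT mean of that probe set (horizontal axis; blue WT, orange CNOT3KO; open points lie under the filter on dim signals; an asterisk marks the probe set used for the gene). The 4 Phgdh probe sets stand far to the left in all knockout arrays, while the 4 Shmt1 probe sets fall on both sides of 0.

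Atf4 was lower in the knockout by its brightest probe set, which read 3227, 3619 and 4797 in WT and 2655, 2820 and 2773 in CNOT3KO. The 3 knockout arrays lay close together, below the lowest WT array, while the WT arrays were spread out. The log2 difference was -0.47 (SE 0.14), and the call was lost without WT mouse 2 (-0.51), WT mouse 3 (-0.31) or CNOT3KO mouse 1 (-0.45). A second probe set had a like difference with overlapping groups (log2 -0.44), reading 832 to 1340 in WT and 600 to 1027 in CNOT3KO. The last one was near the floor of the array, at 3.03 to 5.19. Atf4 is controlled largely at translation, and these arrays measure its mRNA alone.

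Asns, which makes asparagine from aspartate and whose promoter holds the composite core, read 3761, 3127 and 4087 in WT and 2235, 2077 and 3087 in CNOT3KO. CNOT3KO mouse 3 lay just under the lowest WT value, and the other 2 knockout arrays lay clearly lower. The log2 difference was -0.58 (SE 0.16), with the call lost when WT mouse 1 (-0.55), WT mouse 3 (-0.49), CNOT3KO mouse 1 (-0.52) or CNOT3KO mouse 2 (-0.47) was left out. Its other probe set read 2694 to 3358 in WT and 1639 to 2024 in CNOT3KO (log2 -0.74).

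Ddit3 read 1004, 792 and 914 in WT and 680, 596 and 590 in CNOT3KO. All knockout arrays were below all WT arrays, by a log2 difference of -0.52 (SE 0.13). Its call held without any 1 of the mice (log2 -0.61 to -0.44), and was lost when both of its probe sets were averaged (-0.33), the second being dim, at 34.9 to 123 in WT and 49.9 to 67.3 in CNOT3KO. Trib3 read 300, 205 and 200 in WT and 268, 294 and 202 in CNOT3KO. Its groups overlapped in both probe sets, with log2 differences of 0.11 (SE 0.20) and -0.019, so its sign depended on the probe set. Of its relatives, Trib2 fell to 0.426 of WT (log2 -1.23, SE 0.14, limma adjusted p = 0.000193) and Trib1 read -0.49 (SE 0.24, limma adjusted p = 0.133).

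Other genes of the same pathways were taken from lists of known function, chosen with earlier results of these arrays known. Of 18 tested genes of the folate cycle 5 rose (27.8%, against 23.2% of all tested genes), 0 fell (against 16.9%) and 13 did not pass. The median log2 difference was 0.30, against 0.02 over all tested genes. At an unadjusted limma p below 0.05 the number lower was also 0, and 1 gene was called lower with all probe sets averaged or without WT mouse 2. Mthfd1l, the mitochondrial formyltetrahydrofolate synthetase next to Mthfd2 in the pathway, rose by 0.59 (limma adjusted p = 0.00667). Aldh1l2, which oxidises formyltetrahydrofolate in mitochondria, rose by 0.81 (limma adjusted p = 0.0185), a call lost without WT mouse 1 (0.75) or CNOT3KO mouse 2 (0.63). Gart, of purine synthesis, rose by 0.41 but read 0.00 with all its probe sets averaged, and its call was also lost with median centring (0.32) and without WT mouse 2 (0.35). Mthfsd rose 1.79-fold (log2 0.84, SE 0.18). Folr2, a folate receptor of macrophages, rose 2.90-fold from 1126 ± 377 to 3213 ± 319 (SD, n = 3 each; limma adjusted p = 0.000335), beside the higher macrophage markers.

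Of 19 tested genes that use or move serine and glycine, 4 rose (21.1%) and 3 fell (15.8%), near the 23.2% and 16.9% of all tested genes, with a median of 0.01. With median centring 3 were called higher and 5 lower, beside 2318 and 2800 of all 12769 tested genes. The number called lower was 5 also with all probe sets averaged (over all tested genes 1911). It was 5 with array weights (over all tested genes 2932) and with the replicate block (2182) too. Those that fell were Sfxn1, the mitochondrial serine importer, to 0.587 of WT (9627 ± 1104 to 5662 ± 866, SD, n = 3 each; limma adjusted p = 0.00159), its relative Sfxn2 to 0.535 of WT, and Gcsh, a protein of the glycine cleavage system (log2 -0.65). Sptlc3, a subunit of the serine palmitoyltransferase that starts sphingolipid synthesis, rose 3.66-fold from a dim WT signal of 57.4 ± 20.5 (SD, n = 3). Gatm, which uses glycine for creatine synthesis, rose 1.94-fold. Sptlc2 rose by 0.64 but read -0.20 with all its probe sets averaged. Sardh, of sarcosine breakdown, rose by 0.40, a call lost in 9 of the 19 other settings, the replicate block and the removal of WT mouse 2 (0.37), WT mouse 3 (0.36), CNOT3KO mouse 1 (0.43), CNOT3KO mouse 2 (0.41) or CNOT3KO mouse 3 (0.36) among them.

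Of the 30 other tested ATF4 targets, 8 rose (26.7%, against 23.2% of all tested genes), 10 fell (33.3%, against 16.9%) and 12 did not pass, with a median log2 difference of -0.03. Slc1a5, a transporter of glutamine and other neutral amino acids, read 3040 ± 109 in WT and 991 ± 266 in CNOT3KO (SD, n = 3 each), a fall on the log2 scale of -1.63 (limma adjusted p = 9.5e-05). Gpt2, the mitochondrial alanine transaminase, fell to 0.484 of WT (log2 -1.05, SE 0.12, limma adjusted p = 0.000161). Atf3, a stress transcription factor downstream of ATF4, rose from 225 ± 20.2 to 1213 ± 336 (log2 2.28, SE 0.20, limma adjusted p = 4.5e-05). Got1, the cytosolic aspartate transaminase, rose 3.24-fold (limma adjusted p = 7.1e-05). Asns and Ddit3 thus read lower beside Slc1a5 and Gpt2, while Atf3, Got1 and Cars read higher.

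The aminoacyl-tRNA synthetases charge tRNAs and include many ATF4 targets. Of 19 tested 16 rose (84.2%, against 23.2% of all tested genes), 0 fell (against 16.9%) and 3 did not pass. The median log2 difference was 0.50, with single differences between 0.07 and 1.09. The number lower was also 0 at an unadjusted limma p below 0.05. The count of those called higher was 12 with median centring (over all 12769 tested genes 2318) and 10 without CNOT3KO mouse 1 (over all tested genes 2199). Cars, for cysteine, read 356 ± 4.21 in WT and 723 ± 30.3 in CNOT3KO (SD, n = 3 each), a rise of 0.98 (limma adjusted p = 0.000158). Farsa, a phenylalanine synthetase subunit, rose by 1.09 by its brightest probe set but read -0.37 with all its probe sets averaged.

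Upstream of Atf4, 4 of 19 genes of the eIF2 kinases and of eIF2 control rose (21.1%) and 3 fell (15.8%), near the shares of all tested genes (23.2% and 16.9%), with a median of 0.16. Eif2ak4, the kinase GCN2 that senses uncharged tRNA, read 255 ± 24.3 in WT and 452 ± 32.4 in CNOT3KO (SD, n = 3 each), a rise of 0.77 (limma adjusted p = 0.00146). Eif2b4, a subunit of the exchange factor eIF2B, rose 2.36-fold and Eif2b2, another subunit, by 0.58. Oma1, a mitochondrial protease of stress signalling, rose by 0.50. Eif2ak3, the kinase PERK of the endoplasmic reticulum, read 0.16, Eif2ak1 0.34 and Eif2ak2 -0.01, and none of these passed; these 3 were named after their values were seen. Ppp1r15b, a subunit of the eIF2 phosphatase, fell by 0.53, Eif2s3x by 0.43 and Dnajc3, an inhibitor of PERK, by 0.34, and with all probe sets averaged none of the 3 was called (-0.41, -0.19 and -0.21). Dnajc3 also lost its call without WT mouse 1 (-0.29) or CNOT3KO mouse 1 (-0.30).

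The IRE1 and ATF6 arms of the unfolded protein response run beside the ATF4 arm. Of 18 genes of these arms 7 rose (38.9%, against 23.2% of all tested genes) and 0 fell (against 16.9%), with a median of 0.21. At an unadjusted limma p below 0.05, 1 was lower, and 1 was called lower with an offset of 1, the filter at the 60th percentile, quantile normalization, median centring or probe sets without an x or s suffix, and 2 with array weights. Sdf2l1, a chaperone cofactor, rose 2.49-fold (limma adjusted p = 4.2e-05) and Dnajb9, another, 1.53-fold. Ddit3 and Atf4 therefore read lower in arrays in which these chaperone genes read higher. Among partners and relatives of ATF4 in the bZIP and C/EBP families, 2 of 15 rose (13.3%, against 23.2% of all tested genes). In the same list 6 fell (40%, against 16.9%), and the median was -0.16. Not in this list were Cebpb, Cebpg, Atf3, Atf5 and Jdp2, which were counted among the other ATF4 targets. Of them Cebpb (log2 0.46) and Atf3 (2.28) were called higher, and Cebpg (-0.72), Atf5 (-0.97) and Jdp2 (-0.78) lower. Fos rose 4.78-fold and Batf2 3.30-fold from a WT signal of 26.9 ± 9.43, whereas Jun fell to 0.567 and Atf2 to 0.631 of WT. In the bZIP and C/EBP list the number lower was 2 without CNOT3KO mouse 1 (over all tested genes 1621, against 2156 with all mice). It was 3 without WT mouse 2 (over all tested genes 1556) or WT mouse 3 (1885).

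**Figure D3:**
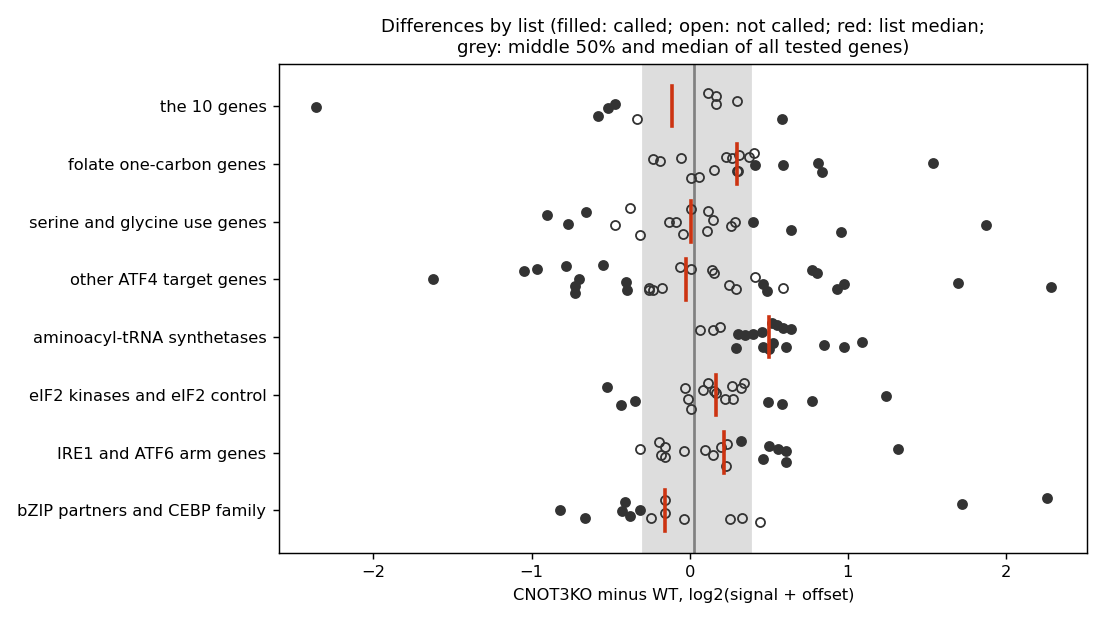
Each point is 1 tested gene's CNOT3KO minus WT difference on the log2(signal + 22.5) scale (horizontal axis), by list, filled where called, with the list median in red and the middle 50% of all tested genes shaded. The synthetases sit on the right of 0, and the other ATF4 targets spread from -1.63 to 2.28.

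The genes whose 6 values lay nearest to those of Phgdh, by Euclidean distance between log2 values taken relative to each gene's WT mean, were Mturn (distance 0.717), Ntrk2 (0.852), Akr1c14 (0.856), Sctr (0.895) and Cachd1 (0.995). Mturn read 1660 ± 306 in WT and 294 ± 99.97 in CNOT3KO, and Ntrk2, the receptor for brain-derived neurotrophic factor, 3737 ± 888 and 725 ± 233 (SD, n = 3 each). Cachd1 read 6052 ± 1571 and 1386 ± 209.9. Akr1c14, a hydroxysteroid dehydrogenase, and Sctr, the secretin receptor, were dim in the knockout, at 55.7 ± 18.2 and 33.8 ± 21.6, so their differences depend on the offset. For 5 of these 5 genes CNOT3KO mouse 2 was the highest knockout array, as it was for Phgdh, a likeness that their choice by distance favours. Among the knockout arrays that mouse also had the highest sums of smooth muscle (11639), mesothelial (4370), macrophage (74033), progenitor (64845), T cell (2082) and proliferation (4095) markers, but not of adipocyte, endothelial or epididymis markers. The smooth muscle and mesothelial sums were lower in the knockout, as Phgdh was, and their part in its values was not tested.

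**Figure D4:**
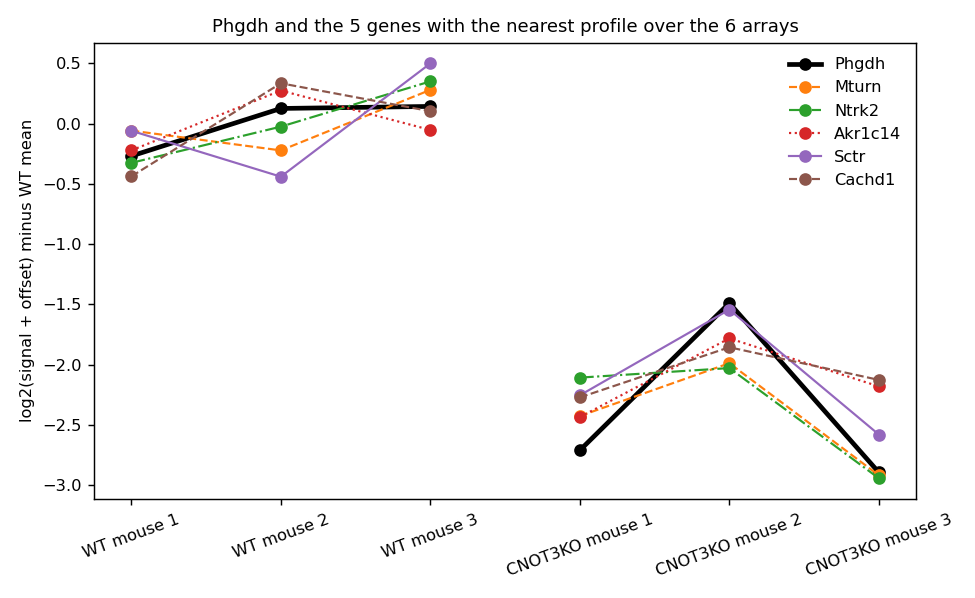
The lines give log2(signal + 22.5) minus the gene's WT mean (vertical axis) in the 6 arrays for Phgdh (black) and the 5 genes with the nearest profile. All 6 genes lie near 0 in WT and between -2.94 and -1.49 in CNOT3KO, and Phgdh rises in CNOT3KO mouse 2.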

How the data were processed

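RNA (500 ng per sample, per the labels' protocols) from 6 fat pads was hybridised to 1-colour Affymetrix arrays. The deposited values are linear intensity signals of 45037 probe sets that the authors obtained from MAS5 (per the submitters' processing notes), with version and settings not given in the sources used here. Of these probe sets 34945 name 1 gene, 932 several and 9160 none. Groups came from the labels, and nothing was left out.

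The signal of each gene's brightest probe set (by its mean over all arrays) entered as log2(signal + 22.5), where 22.5 is the 25th percentile over all deposited values. Genes with a mean signal under 51.6, the 40th percentile, were not tested. CNOT3KO and WT were compared with limma 3.58.1 (trended eBayes, R 4.3.3) and Benjamini-Hochberg adjustment over 12769 genes, a procedure tested on simulated data. The simulation drew genes independently and changed a far smaller share of them than was called here, so it does not cover these conditions. The p-values measure the spread between these mice. The members and lists were chosen with earlier results of these data known. Genes named are the members, up to 2 called genes per list and direction with the widest differences, Trib1, Trib2, the 5 profiles nearest to Phgdh and defining cell type markers. Where 5 or fewer genes of a list were called, the remaining ones were named after their values were seen. So were the CCAAT box and Eif2ak1, Eif2ak2, Eif2ak3, Cebpb, Cebpg, Atf5 and Jdp2. Promoters come from RefSeq, in which 10 of 10 members matched. Alternatives changed the offset, filter, normalization, centring, probe set rule, trend, array weights, replicate block and mice included. Groups of 3 were too small for a search for outlying samples.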

Additional observations from a re-analysis of the deposited data

How the results depend on the processing

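Over 19 other settings, 1040 of 1077 differences of 57 named genes kept their direction and call. The call was lost in 29, gained in 2 (Shmt1 and Shmt2), and the sign changed in 9, of which 3 also changed the call. The settings for the filter, trend, replicate block and single probe sets leave a gene's difference as it is, so only its call could change there. The setting without suffixes likewise leaves the difference of a gene whose brightest probe set has no x or s suffix. Phgdh and Psat1 were called in all 19. Every Phgdh probe set carries the x suffix, so the setting without such suffixes kept its brightest one and could not test its call. The number of members called higher was 2 with probe sets without an x or s suffix (over all tested genes 2897, against 2959 in the main setting). It was also 2 with array weights (over all tested genes 3683). The number of members called lower ranged from 2 to 4 when 1 mouse was left out, being 2 without WT mouse 3 or CNOT3KO mouse 1. Over all tested genes it ranged from 1556 to 1978, against 2156 with all mice, and was 1885 and 1621 without those mice. With all probe sets of a gene averaged, Sptlc2 read -0.20, Farsa -0.37 and Shmt1 0.29. With probe sets without an x or s suffix Shmt1 read 0.52 and Trib3 -0.019. Quantile normalization gave Adipoq 0.038. Leaving out 1 mouse, Psph ranged from -0.075 to 0.36, Mthfd2 from -0.057 to 0.30 and Adipoq from -0.27 to 0.071. Apart from the probe set averages, which use other probe sets, and the left-out mice, the cause was not tested. Mice share only a number across groups (correlations of deviations 0.0742, 0.109 and 0.0433). With the replicate block 2910 genes were called higher and 2182 lower, against 2959 and 2156, and the serine and glycine genes called lower were 5 in place of 3. Signals near the floor, as for Akr1c14, Sctr and Batf2, limit the size of a difference.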
